A study of Ovis aries with 15 samples.

Results

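H3K27me3 was compared between lambs and fetuses in perirenal adipose tissue, the kidney fat, of sheep, in all 4 libraries of this mark among the 15 samples of the series. The fetal libraries came from 2 purebred merino fetuses at 132 ± 1 days after conception, with term at 150 ± 3 days. The lamb libraries came from 2 purebred merino lambs, 80 days old in the series design and 89 ± 7 days old in the growth protocol. All animals were wild type and untreated, their sex is not given, and the titles of the lamb libraries alone carry the tag VEH, so whatever it stands for cannot be told apart from stage. Native chromatin was cut with micrococcal nuclease into fragments of about 150 bp and precipitated with 10 µg of antibody (Millipore 07-449). The members were 6334 promoters, of which 4040 carried a gene name, and 83493 of 107166 deposited regions, those on chromosomes 1 to 26. The libraries are separate animals, so spread between animals and spread between precipitations cannot be told apart. The p-values rest on that joint spread between these libraries, estimated with help from all features.

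H3K27me3 is trimethylation of lysine 27 on histone H3, written by the Polycomb repressive complex around EZH2 and erased by the demethylases KDM6A and KDM6B. It covers the CpG-rich promoters of developmental regulators that a tissue keeps silent, such as HOX and other homeobox genes, often in domains many kilobases wide. Some of these promoters also carry H3K4me3, a mark of active or poised promoters, and the mark is exclusive with acetylation of the same lysine (H3K27ac), found at active promoters and enhancers. Perirenal fat of the sheep is brown before birth, rich in the uncoupling protein UCP1, and turns white in the weeks after it.

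The 4 libraries differed in more than stage. They held 324662 to 430345 reads at promoters and 4244517 to 5375459 reads in regions of chromosomes 1 to 26. Across promoters, log2 values correlated at r = 0.922 between the fetal libraries, 0.809 between the lamb libraries and 0.737 to 0.777 across stages, as a description over promoters. Chromosome X took 49.5 and 48.7% of all region reads in fetuses but 29.7% in lamb 1 and 41.3% in lamb 2, and it was left out of the region fit. None of the 3423 promoter names found in the RefSeq gene table lay on a sex chromosome. A set of 18 regions with at least 1000 reads per kb took 1.55 and 1.61% of the reads of chromosomes 1 to 26 in fetuses, 6.39% in lamb 1 and 3.81% in lamb 2. The tissue label was read from the H3K27ac promoters, where FABP4, PLIN1 and ADIPOQ, all genes of mature fat cells, lay at the 98.6th, 98.0th and 96.1st percentile of level. In bulk tissue, fewer cells of a type that carries the mark and less mark per cell cannot be told apart.

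The first question was which promoters gained or lost H3K27me3 between fetus and lamb. The mark fell at 559 of 6334 promoters (8.83%) and rose at 280 (4.42%), so that 13.2% passed the test (limma on log2 scaled values, Benjamini-Hochberg adjusted p under 0.05). A scaled value is the deposited value brought to a common library size by TMM. Most losses were at strongly marked promoters, where gains were few. Of the 1584 promoters of highest mean level (the top class of 4 of nearly equal size), 403 fell and 22 rose, with a median log2 change of -0.37. In the other classes, from the lowest level up, 72, 96 and 90 rose (4.55, 6.06 and 5.69%) and 32, 35 and 89 fell, with a median of 0.24 in the lowest. Because changes drifted with level, each promoter was also ranked among the 300 promoters nearest to it in mean level. Of the 559 losses, 308 ranked below the 10th percentile of their neighbours, and of the 280 gains, 279 ranked above the 90th. The rank uses the same change as the test, so it describes the calls and is no separate support for them. The 2 lambs did not overlap the 2 fetuses at 59.8% of all promoters, so that non-overlap at a named promoter is common in itself.

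These counts rest on few libraries. Without lamb 1 the test called 885 losses and 520 gains. Without fetal 1 it called 112 and 36, and without fetal 2 it called 61 and 39. Without lamb 2 limma called 0 in either direction, with 999 lower and 798 higher promoters at an unadjusted p under 0.05, and edgeR on the recovered reads also called 0. With column totals in place of TMM, the split became 368 losses and 435 gains, so that losses made up 45.8% of calls in place of 66.6%.

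**Figure D1:**
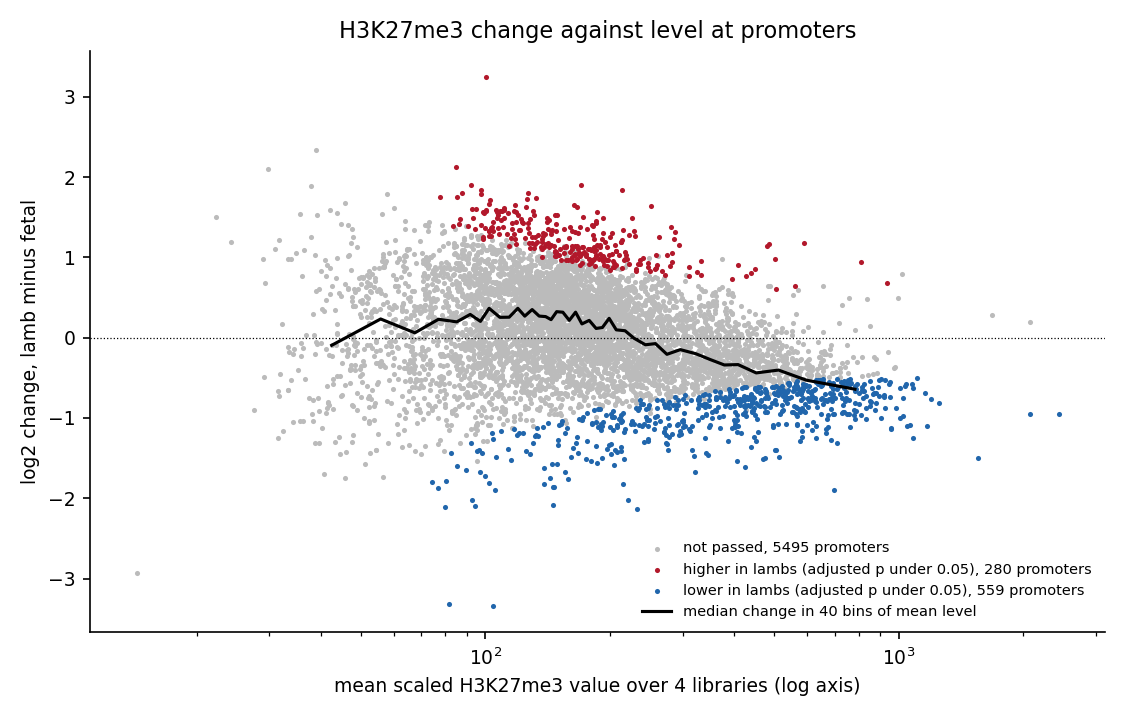
Log2 change of H3K27me3 (lamb minus fetal) against the mean scaled value over the 4 libraries (log axis), 1 point per promoter, with the 559 losses in blue, the 280 gains in red and the median change in bins of level as a line. The line lies above 0 at weak promoters other than those of lowest level and falls below 0 at strong ones, where most losses are found.

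Among promoters with a gene symbol, the largest losses were at some with a moderate fetal level that were nearly empty in lambs. GSN, which encodes the actin-severing protein gelsolin, had scaled values of 192 and 182 in fetuses and 36.0 and 8.24 in lambs (log2 change -3.34, SE 0.60, limma adjusted p = 0.00172). The lamb values rest on 11 and 2 reads against 57 and 54 in fetuses. ADORA2B, an adenosine receptor, had 128 and 168 in fetuses and 22.9 and 8.24 in lambs (log2 change -3.31, SE 0.64, limma adjusted p = 0.00275). At both promoters lamb 2 was the lowest library, and both lambs lay far below both fetuses. Only promoters without overlap between the stages were eligible for the largest losses and gains.

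FXYD5, a regulator of the sodium pump, had 376 and 377 in fetuses and 62.2 and 115 in lambs (log2 change -2.14, SE 0.32, limma adjusted p = 0.00037). S100A6, a calcium-binding protein, had 339 and 330 in fetuses and 78.6 and 111 in lambs (log2 change -1.83, SE 0.30, limma adjusted p = 0.000934). MINK1, a kinase of the stress-activated pathways, had 232 and 242 in fetuses and 52.4 and 57.7 in lambs (log2 change -2.09, SE 0.35, limma adjusted p = 0.00112). In these 3 the fetal pair was nearly equal, both lambs lay far below it, and lamb 1 was the lowest library. RIPK3, a kinase of necroptotic cell death, went from 229 and 226 to 49.1 and 78.3 (log2 change -1.85, limma adjusted p = 0.00284).

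PSMB9, a subunit of the immunoproteasome, CAST, the calpain inhibitor calpastatin, SERPINB1, an inhibitor of neutrophil proteases, PRTFDC1, BHLHE41, a repressor of the circadian clock, and DBNDD2 made up the rest of the 12 largest losses, with log2 changes from -2.11 at PSMB9 to -1.86 at DBNDD2. At DBNDD2 the lambs differed widely, with 121 in lamb 1 and 28.9 in lamb 2. All 12 lay below the 1st percentile of promoters of their own level, a rank of the same change by which they were chosen. No promoter analysed had its highest value under 51.5 before TMM scaling. At GSN, ADORA2B, PSMB9, CAST, SERPINB1, PRTFDC1 and BHLHE41 both lambs were below that floor, so these were listed through the fetuses alone. How far that floor shaped the largest losses was not tested. F2R, the thrombin receptor, was among the 6 promoters farthest below their neighbours, with 265 and 300 in fetuses and 91.7 and 107 in lambs (log2 change -1.5, SE 0.30, limma adjusted p = 0.00301).

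The other histone marks were read at the same 12 promoters, in tables and fits of their own. The H3K4me3 fits also include lamb 3, an animal with no H3K27me3 library. All 12 had a row in both tables. H3K27ac rose at 7 of the 12 and fell at 0, where 23.3% of the 2297 promoters shared by both tables rose. At GSN the mean H3K27ac value was 189 in fetuses and 263 in lambs (log2 change 0.47, limma adjusted p = 0.0169), and at PSMB9 it was 123 and 226 (log2 change 0.89, limma adjusted p = 0.00232). H3K4me3 passed the limma test at 0 of the 12, with changes from -0.59 to 1.21, where 14.5% of 3522 shared promoters rose and 0.568% fell.

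The largest gains at promoters with a gene symbol were at some that were weakly marked in fetuses. Promoters weak in all 4 libraries could not be seen, since the highest value before TMM scaling was never under 51.5. DAP12, an adaptor protein of myeloid and natural killer cells, had 73.9 and 40.4 in fetuses and 233 and 161 in lambs (log2 change 1.80, SE 0.40, limma adjusted p = 0.00657). GABRD, a subunit of the GABA receptor, had 70.6 and 47.1 in fetuses and 183 and 202 in lambs (log2 change 1.72, SE 0.38, limma adjusted p = 0.00596). Both lambs stood above both fetuses at these promoters, as the choice of the largest gains required.

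F10, the coagulation factor X of the liver, had 43.7 and 33.7 in fetuses, 226 in lamb 1 and 86.6 in lamb 2, so that the size of its rise differed between the lambs (log2 change 1.84, SE 0.50, limma adjusted p = 0.0198). C1orf68, SLC44A4, SLC5A1 (the glucose transporter SGLT1), C1orf167, TAAR5 (a trace amine receptor), SLC22A18, NPC1L1 (the cholesterol transporter of the gut) and GAL3ST2 brought those described here to 11 of the 12 largest gains, with log2 changes from 1.80 at C1orf68 to 1.59 at GAL3ST2. Only 3 of the 12 had a row in the H3K4me3 table and 3 in the H3K27ac table, where C1orf68 alone passed, for H3K4me3 (log2 change 2.26). For F10, C1orf68, SLC44A4 and NPC1L1 both fetuses were below the floor of 51.5, so these were listed through the lambs alone. How far that floor shaped the largest gains was not tested.

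**Figure D2:**
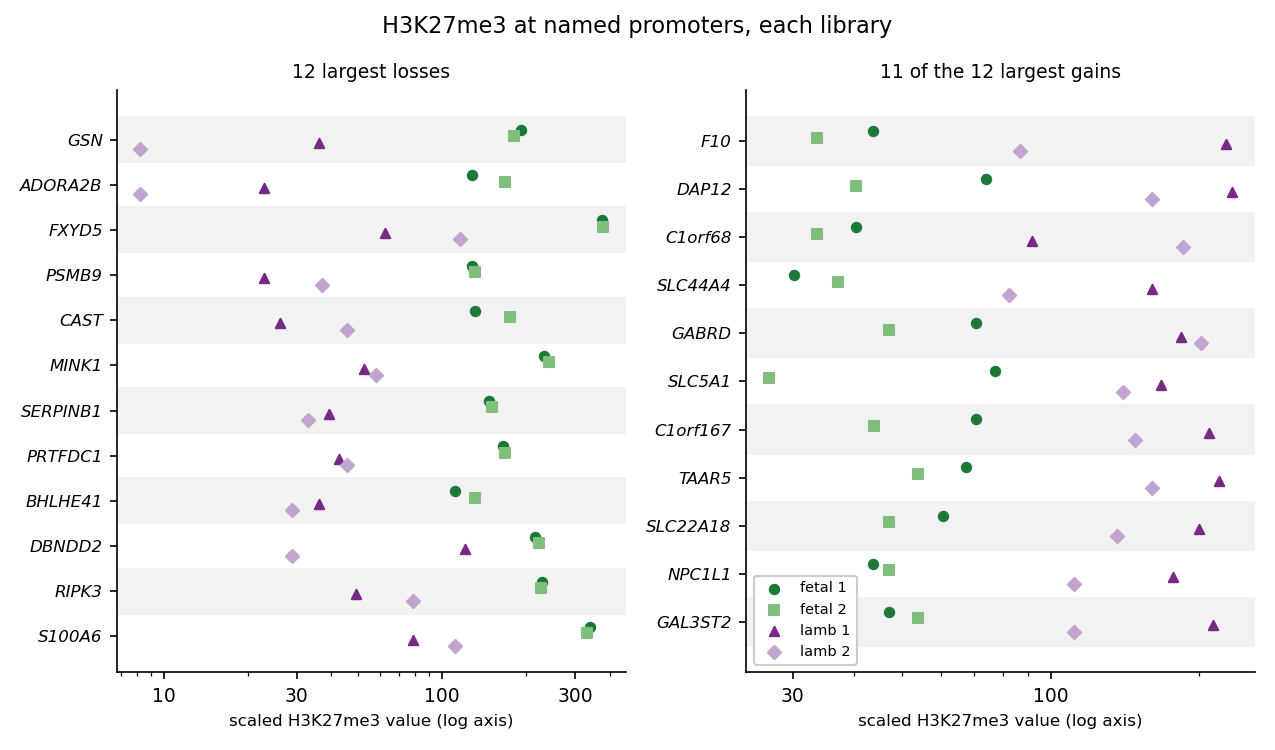
Scaled H3K27me3 values (log axis) of each library at the 12 promoters with the largest losses (left) and at 11 of the 12 with the largest gains (right), by gene. Only promoters without overlap between the stages were eligible. Both lambs therefore lie below both fetuses on the left and above them on the right. Lamb 1 and lamb 2 are wide apart at GSN, DBNDD2, ADORA2B and F10, among others.

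Among the 1584 most strongly marked promoters, 22 rose. MUC12, a membrane mucin, had 474 and 404 in fetuses and 655 and 713 in lambs (log2 change 0.64, SE 0.18, limma adjusted p = 0.0262), at the 99.3rd percentile of its level. TP-1, an interferon tau gene, had 272 and 327 in fetuses and 655 and 688 in lambs (log2 change 1.17, limma adjusted p = 0.00112), and MCP-3 had 279 and 313 against 524 and 462 (log2 change 0.73, limma adjusted p = 0.0265). TRAV24, a variable segment of the T-cell receptor, had 235 and 407 against 423 and 688 (log2 change 0.80, limma adjusted p = 0.0438), with fetal 2 and lamb 1 nearly equal. TRAV21 had 420 and 811 in fetuses and 537 and 1261 in lambs, and its stages overlapped. TP-1 and the TRAV segments belong to multigene families whose copies may share reads, so their values are uncertain. With the deposited scaling MUC12, MCP-3 and TRAV24 did not pass (limma adjusted p = 0.178, 0.151 and 0.101), nor with DESeq2 on recovered reads (adjusted p = 0.125, 0.114 and 0.146). TP-1 passed in both, and without lamb 2 none of the 4 passed. Without fetal 1 only TP-1 passed, with TRAV24 at a log2 change of 0.38, and without fetal 2 MUC12 and MCP-3 did not pass. H3K4me3 was also higher in lambs at MUC12, 617 against 208 (log2 change 1.63, limma adjusted p = 0.00181).

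Developmental transcription factors were strongly marked: the median scaled value was 466 for homeobox genes outside the HOX clusters and 294 for HOX genes, against 340 for neuronal genes and 168 over all promoters. Across the lists of HOX, other homeobox, bHLH, and SOX, GATA, T-box, ZIC and forkhead genes, 83 of 213 measured promoters fell (39.0%) and 1 rose, against 8.83% and 4.42% of all promoters. Within the class of highest level, 78 of their 149 promoters fell (52.3%), where 25.4% of all promoters in that class fell, and their median log2 change was -0.57 against -0.37. With a loess curve against level subtracted, 0 HOX, 3 other homeobox, 3 bHLH and 3 SOX-to-forkhead promoters passed as lower. Without lamb 2, 0 passed in each list, without fetal 1 it was 0, 7, 2 and 5, without fetal 2 it was 0, 4, 0 and 2, and without lamb 1 it was 11, 62, 18 and 27.

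HOX genes give cells their position along the body axis. Of 26 measured HOX promoters, 9 fell and 0 rose, with a median log2 change of -0.51, or -0.24 after subtracting the median of like-level promoters. HOXD13, the strongest named promoter of the table, had 1586 and 1589 in fetuses and 806 and 1018 in lambs (log2 change -0.81, SE 0.14, limma adjusted p = 0.00159). HOXD10 had 612 and 576 in fetuses and 282 and 326 in lambs (log2 change -0.97, SE 0.20, limma adjusted p = 0.00423). HOXC12 had 1055 and 993 in fetuses and 554 and 602 in lambs (log2 change -0.83, limma adjusted p = 0.00275), and HOXB9 had 518 and 505 against 314 and 289 (log2 change -0.76, limma adjusted p = 0.0196). In all 4 the fetal pair was tight and the lambs lay below it.

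All 9 HOX losses fell in paralogue groups 9 to 13, the posterior end of the clusters, a split that was made after the values were seen. Of the 14 measured promoters of these groups 9 fell, and of the 12 in groups 1 to 8, 0 fell. The posterior promoters were also the more strongly marked, with a median scaled value of 508 against 150.

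Of 105 other homeobox promoters, 41 fell and 0 rose (median log2 change -0.52, or -0.12 relative to like level). MSX2, a regulator of bone and limb growth, had 904 and 879 in fetuses and 364 and 383 in lambs (log2 change -1.25, SE 0.18, limma adjusted p = 0.000291). PROX1, which sets lymphatic endothelial identity, had 817 and 1030 in fetuses and 331 and 491 in lambs (log2 change -1.18, SE 0.20, limma adjusted p = 0.00112). NKX2-1, of lung and thyroid, fell by 1.09 on the log2 scale. All 3 lay below the 4th percentile of their level, MSX2 and PROX1 below the 2nd, and the lambs did not overlap the fetuses at any of them.

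NKX2-3 and NKX2-6, strong heart and gut homeobox promoters, fell as well (log2 changes -0.61 and -0.75) and ranked at the 44.0th and 26.7th percentile of promoters of like level. Evf-2_5p, a noncoding RNA of the DLX locus, had 1499 and 1542 in fetuses and 567 and 721 in lambs (log2 change -1.25, SE 0.15, limma adjusted p = 0.000121) and lay at the 1.67th percentile. LIN28B, an inhibitor of let-7 microRNA processing, had 1311 and 1360 against 567 and 787 (log2 change -1.0, limma adjusted p = 0.000934). GIPR, the receptor of an incretin hormone, and DUOX2, an oxidase of the thyroid, had somewhat lower fetal values (1122 and 1084, and 1163 and 1033) and did not pass the test (log2 changes -0.38 and -0.37).

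Of 38 bHLH lineage promoters, 13 fell and 1 rose. ATOH7, a factor of retinal ganglion cells, had 181 and 252 in fetuses and 42.6 and 120 in lambs (log2 change -1.57, SE 0.41, limma adjusted p = 0.017). The Notch targets HEY1 and HEY2 fell by 1.18 and 1.13. BHLHE23 rose, from 97.5 and 118 to 259 and 214 (log2 change 1.13, SE 0.31, limma adjusted p = 0.0199). Of 44 SOX, GATA, T-box, ZIC and forkhead promoters, 20 fell and 0 rose, led by SOX21 (528 and 569 against 262 and 190, log2 change -1.29, limma adjusted p = 0.00145), FOXD2 (log2 change -1.18), GATA4, a factor of heart and gonad (870 and 976 against 367 and 491, log2 change -1.12, limma adjusted p = 0.000945), and FOXA1, of liver and gland epithelium (log2 change -1.07).

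**Figure D3:**
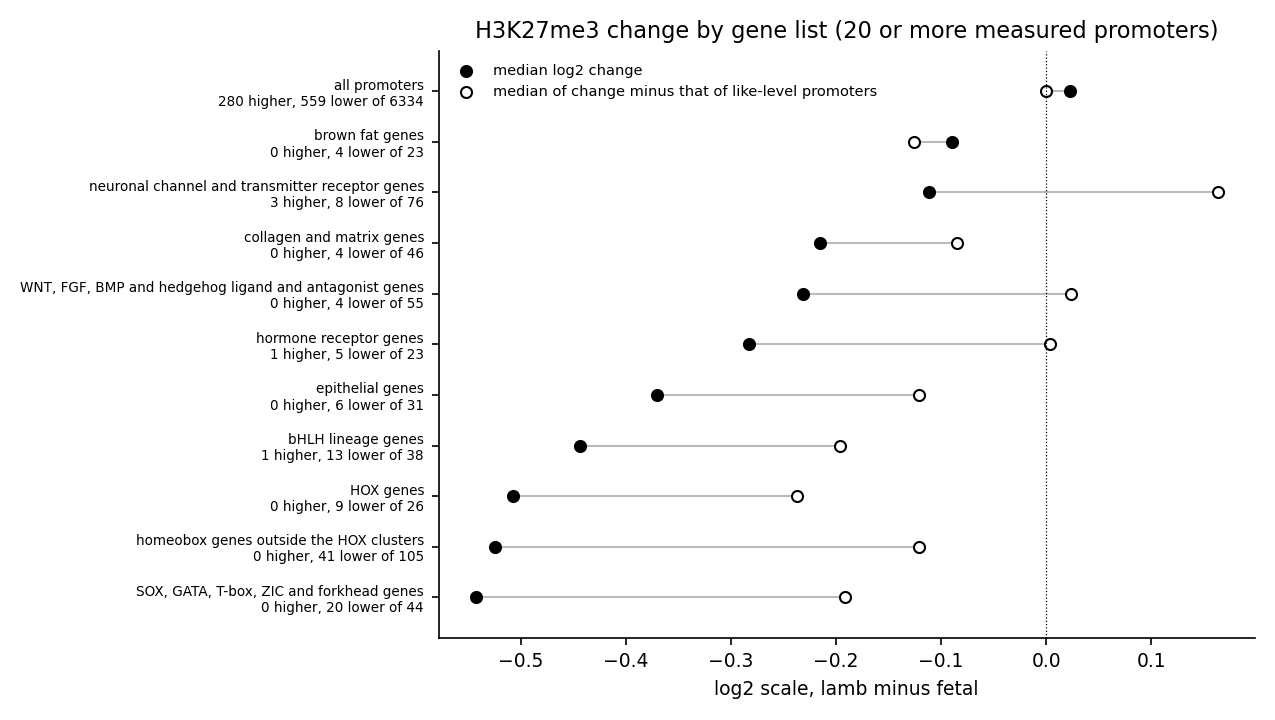
Median log2 change (filled) and median change relative to promoters of like level (open) for each gene list with 20 or more measured promoters, with the number that passed in each direction. The 4 transcription factor lists have the lowest medians, -0.44 to -0.54, which shrink to between -0.12 and -0.24 relative to like level, and neuronal genes move to 0.16.

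Of 23 measured brown fat promoters 4 fell (17.4%, against 8.83% of all promoters) and 0 rose. All 4 were among the 7 of the list in the class of highest level, where 25.4% of all promoters fell. LHX8, a homeobox gene of brown fat cells, had 941 and 875 in fetuses and 400 and 552 in lambs (log2 change -0.95, SE 0.18, limma adjusted p = 0.00275). ZIC1, a marker of classical brown fat, had 723 and 747 in fetuses and 426 and 375 in lambs (log2 change -0.88, SE 0.18, limma adjusted p = 0.00423). TBX15 had 639 and 788 against 465 and 462 (log2 change -0.61, limma adjusted p = 0.0305), and ESRRG, a nuclear receptor of oxidative tissues, had 393 and 313 against 164 and 243 (log2 change -0.81, limma adjusted p = 0.0434). The lambs were lower in all 4, though at the 10.7th, 10.3rd, 37.7th and 8.33rd percentile of like level. At LHX8 the H3K27ac value was also lower in lambs, 125 against 254 (limma adjusted p = 0.00101). Without lamb 2, without fetal 1 or with the loess curve 0 of the 4 calls were made, and without fetal 2 it was 1. TBX15 and ESRRG also did not pass with column totals (limma adjusted p = 0.0717 and 0.0795), the deposited scaling (0.0814 and 0.0652) or DESeq2 (0.125 and 0.138), nor ESRRG without lamb 1 (0.0899).

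UCP1 had 430 and 370 in fetuses and 436 and 458 in lambs (log2 change 0.16, SE 0.20, limma adjusted p = 0.614). The lambs stood just above the fetuses, and the change ranked at the 93rd percentile of promoters of this level, most of which were lower in lambs. Its H3K27ac value was 275 in fetuses and 143 in lambs (log2 change -0.94, limma adjusted p = 0.000242). PRDM16, a coregulator of brown fat identity, had 77.3 and 80.8 in fetuses, 183 in lamb 1 and 103 in lamb 2 (log2 change 0.79, SE 0.39, limma adjusted p = 0.179). ADRB3, the adrenergic receptor of fat cells, had 198 and 215 against 328 and 231 (log2 change 0.41, limma adjusted p = 0.3). CIDEA and IRF4 overlapped between stages, with log2 changes of 0.13 and -0.03. PPARGC1A, EBF2, DIO2, TBX1, ADIPOQ, PPARG, CDKN2A and CDKN2B were not analysed here, since no row of the promoter table carries their names.

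Genes of white fat and of mature fat cells passed the test in neither direction: 0 of 12 and 0 of 8 measured promoters, with medians of -0.19 and -0.24 in limma's fit. TCF21, a mesenchymal factor of visceral white fat, had 524 and 448 in fetuses and 337 and 293 in lambs (log2 change -0.62, limma adjusted p = 0.0542). HOXC9 and HOXC10, used as markers of white fat, had log2 changes of -0.54 and -0.22 (limma adjusted p = 0.143 and 0.565), WT1 had 0.03 and LEP, the leptin gene, had 501 and 468 against 364 and 396 (log2 change -0.35, limma adjusted p = 0.241). LPL, which releases fatty acids from blood lipids, and PNPLA3 had -0.38 and 0.34. Of 5 measured genes of the Polycomb machinery itself 0 passed. CBX7 had 299 and 384 against 154 and 268 (log2 change -0.74, limma adjusted p = 0.0783), and the stages overlapped at CBX8 (339 and 394 against 341 and 198).

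Signalling and matrix genes passed in small numbers. Of 55 WNT, FGF, BMP and hedgehog ligand and antagonist promoters 4 fell (7.27%) and 0 rose, namely FGF20, DKK1, FGF12 and INHBA, with log2 changes from -0.84 to -0.56. Of 46 collagen and matrix promoters 4 fell (8.70%, near the 8.83% of all promoters), led by LAMA3, a laminin chain of epithelial basement membranes (507 and 458 against 105 and 214, log2 change -1.68, SE 0.29, limma adjusted p = 0.00112), FN1, the fibronectin gene (534 and 545 against 275 and 223, log2 change -1.12), and EFEMP1 (log2 change -1.02). Of 31 epithelial promoters 6 fell (19.4%), among them the polarity gene CRB3 (log2 change -1.29) and the claudin CLDN7 (-1.09). In the class of highest level 4 of 16 epithelial promoters fell (25%), near the 25.4% of all promoters there. In that class 4 of 28 ligand and antagonist promoters fell (14.3%) and 4 of 20 collagen and matrix promoters (20%).

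Of 23 hormone receptor promoters 5 fell (21.7%) and 1 rose, against 8.83% and 4.42% of all promoters. All 5 losses were among the 12 in the class of highest level, where 25.4% of all promoters fell. NR4A2, an orphan nuclear receptor, had 585 and 626 in fetuses and 187 and 231 in lambs (log2 change -1.54, SE 0.22, limma adjusted p = 0.000291), and its relative NR4A3 fell by 0.87. Of 76 neuronal channel and receptor promoters 8 fell (10.5%, near the 8.83% of all promoters) and 3 rose. In the class of highest level 7 of their 45 promoters fell (15.6%), fewer than the 25.4% of all promoters there. HTR7, a serotonin receptor, and GABRA2 fell by 1.16 and 1.09, while CACNA1I, a calcium channel, rose by 1.10 beside GABRD. Of 11 imprinted promoters SLC22A18 alone passed, and of 2 cell cycle inhibitor and 4 DNA replication promoters, 0 passed.

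Marker genes of other cell types passed in small numbers, to be read against the 8.83% of all promoters that fell and the 25.4% in the class of highest level. Of 6 endothelial promoters 3 fell (PROX1, SOX17 and FLT1), and the summed scaled value of the list went from 2400 and 2535 in fetuses to 1222 and 1562 in lambs. PROX1 and FLT1, both of high level, carried much of that sum, and EGFL7 had higher values in lambs without passing (log2 change 0.78). Of 6 mesothelial promoters 2 fell (sums 2305 and 2050 against 1533 and 1673), and of 11 Schwann cell and neuron promoters 3 fell (sums 3633 and 4090 against 2817 and 3108). For lymphocytes the sums were 2709 and 2595 against 2807 and 2440, with NKG7 higher in lambs (log2 change 1.04, limma adjusted p = 0.0309) among 10. For macrophages they were 1647 and 1471 against 1654 and 1739, with C1QC higher (1.22) and CD14 lower (-1.31) among 8. Among 9 adrenal promoters 0 passed, and 1 fell of 12 for kidney, of 14 for stroma and of 11 for smooth muscle, and 2 of 12 for skeletal muscle. Whether the makeup of the tissue had a part in the losses was not tested.

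The second question was where along the chromosomes H3K27me3 changed. Of 82693 tested regions, 5811 fell (7.03%) and 3164 rose (3.83%), 10.9% in all (edgeR quasi-likelihood test, adjusted p under 0.05). Losses were more frequent the broader the region, and gains were most frequent between 1 and 2 kb (6.37%). Of 644 regions over 10 kb wide, 431 fell (66.9%) and 4 rose, with a median log2 change of -0.66. Of 24611 regions up to 700 bp wide, 99 fell (0.402%) and 363 rose (1.48%), with a median of 0.26. The share of reads in regions over 10 kb was 16.3 and 17.1% in fetuses and 12.1 and 12.9% in lambs, and that in regions up to 700 bp was 7.68 and 7.29% against 9.65 and 9.64%. On both measures the stages did not overlap. The excess of losses in broad regions depended on scaling from regions of all widths. With that scaling 2303 regions of 2 to 5 kb fell and 386 rose. When regions of at least 2 kb were scaled and fitted alone, 1228 fell and 1145 rose. Of the regions over 10 kb, 182 fell without fetal 1, 58 without fetal 2, 355 without lamb 1, 443 without lamb 2 and 194 with scaling from all regions of the table.

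Region counts moved with single libraries too. Losses and gains were 2029 and 426 without fetal 1, 970 and 377 without fetal 2, 3996 and 2023 without lamb 1 and 8255 and 5800 without lamb 2. Losses made up 64.7% of calls, 39.5% with column totals and 20.6% with scaling from all regions, which include chromosome X. The stages did not overlap at 56.7% of tested regions.

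**Figure D4:**
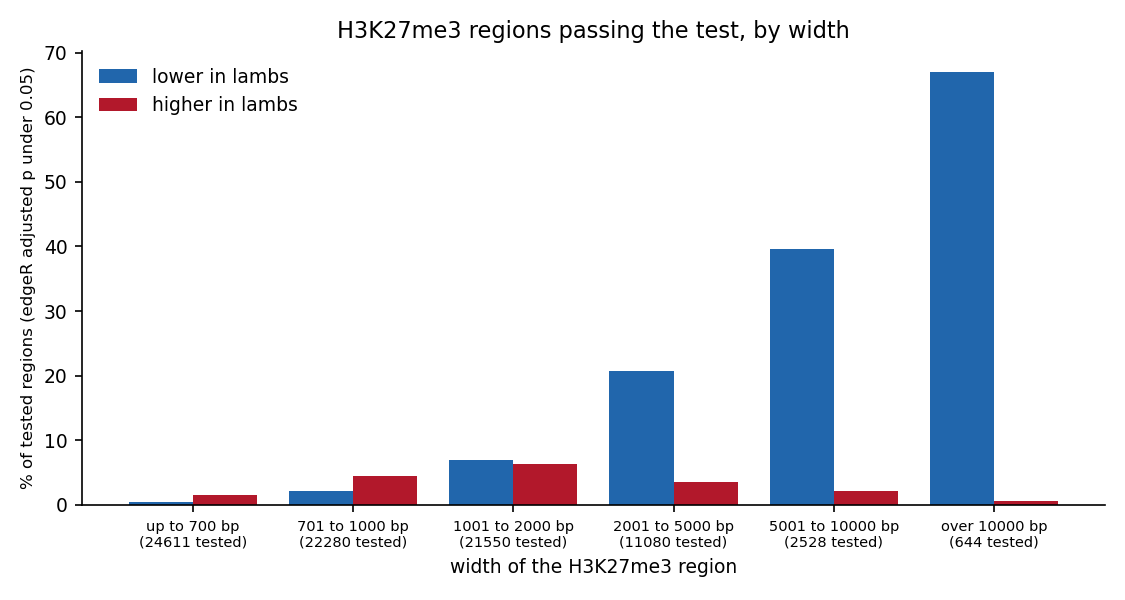
Percentage of tested H3K27me3 regions that were lower (blue) or higher (red) in lambs, by width of the region. The lower share climbs from 0.402% in the narrowest to 66.9% in the widest class, while the higher share peaks at 6.37% between 1 and 2 kb. Scaling came from regions of all widths, on which the excess of losses in broad regions depends.

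The widest region that fell spanned 50.7 kb at chr11:37304751-37355450 (Oar_v3.1), with 6521 and 6701 reads in fetuses and 3763 and 3403 in lambs. Its CPM values (reads relative to the TMM-scaled library size) were 1256 and 1388 in fetuses and 679 and 754 in lambs (log2 change -0.88, edgeR adjusted p = 3.64e-06). Among the 8 largest losses, the one with most reads was at chr16:33698051-33700750, where 123 and 127 reads in fetuses became 13 and 9 in lambs (log2 change -3.50, edgeR adjusted p = 4.58e-20). At chr4:94835651-94840300, chosen after the values were seen for its small p, 253 and 290 reads became 23 and 38 (log2 change -3.14, edgeR adjusted p = 1.43e-27). At chr3:179861301-179862050 the fetuses had 23 and 31 reads and both lambs 0. Lambs and fetuses were far apart at each of these but the widest, where lambs kept more of the signal. No gene annotation of this build was used here, so regions are given by position alone.

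Called regions lay in runs of 1 direction with gaps of at most 50 kb: 67.4% of the losses in 1170 runs and 56.3% of the gains in 531. A run passes over regions that were not called, and its CPM is summed over called regions alone. How often regions in general lie this close was not computed, so these shares have no background beside them. The longest run of losses held 59 called regions, of 114 inside its 508 kb, at chr4:95777851-96285600, with 1813 and 1678 CPM in fetuses and 852 and 643 in lambs. Another held 50 called regions, of 88 inside it, at chr19:29284601-29676250, with 2790 and 2579 against 1004 and 1040. In both runs the lambs lay below both fetuses, and in the first lamb 2 was the lowest. The longest run of gains held 27 called regions, of 33 inside it, at chr3:106442201-106638500, with 386 and 435 CPM in fetuses and 1132 and 1084 in lambs.

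The next 3 runs of gains all lay at the very start of a chromosome: 21 of 32 regions at chr6:1-195000, 19 of 19 at chr7:2701-128700 and 19 of 21 at chr9:1-157800. Position was therefore tabulated after this was seen. Sheep chromosomes 1 to 3 have a central centromere and the others carry it at an end. On chromosomes 4 to 26, 146 of 282 tested regions in the first 0.25 Mb rose (51.8%) and 9 fell, with a median log2 change of 1.20. From 0.25 to 0.5 Mb 19.4% rose, and beyond 20 Mb 3.52%. In the last 0.25 Mb before the final region of each chromosome 7.12% rose, and in the first 0.25 Mb of chromosomes 1 to 3 it was 9.33% of 75.

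The starting windows took 0.887 and 1.01% of reads in fetuses and 2.45 and 2.06% in lambs, and without the regions of at least 1000 reads per kb 0.631 and 0.728% against 1.43 and 1.40%. Without lamb 1, 138 regions of these windows rose and without lamb 2, 135. Without fetal 1 it was 62, without fetal 2 it was 78 and with DESeq2 it was 76. At least 1 region rose in the first 0.5 Mb on 19 of 23 chromosomes, and at least 1 fell on 9. Gains outnumbered losses on 14 of the 23, with 38 of 48 on chromosome 9 and 0 of 17 on chromosome 13.

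**Figure D5:**
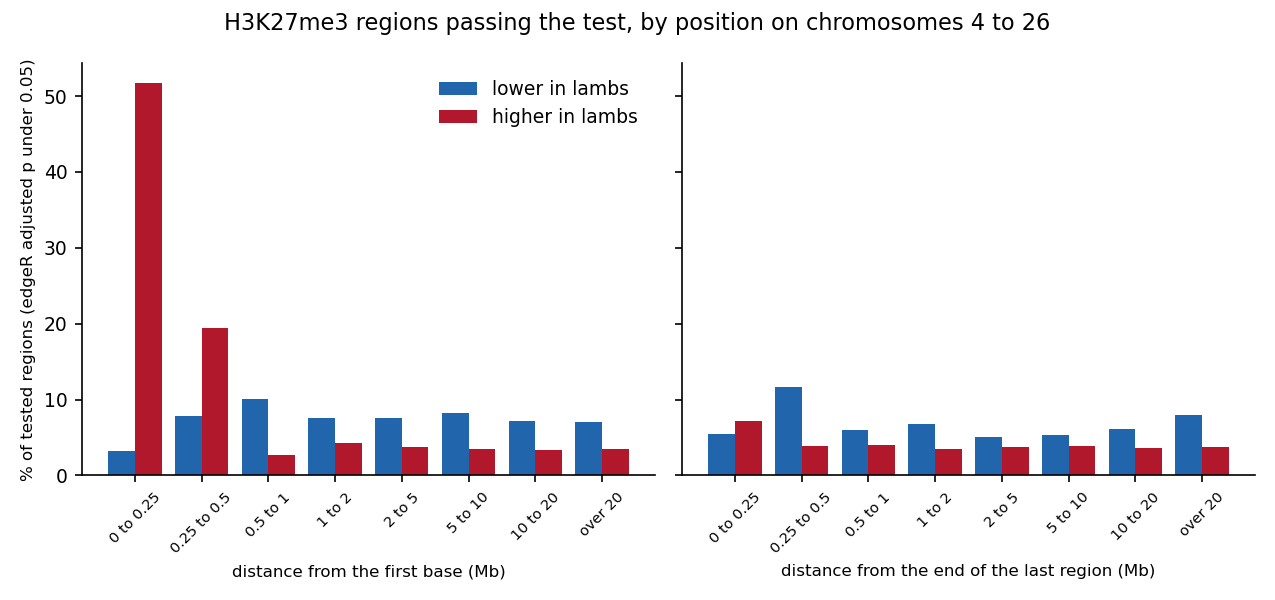
Percentage of tested H3K27me3 regions on chromosomes 4 to 26 that were lower (blue) or higher (red) in lambs, by distance in Mb from the first base of the chromosome (left) or from the end of its last region (right). The first 0.25 Mb stands out with 51.8% higher, and the far end has 7.12%.

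The gains at chromosome starts were also seen in the other marks' own tables. In the same first 0.25 Mb, 62 of 306 H3K4me3 regions were higher in lambs (20.3%, against 0.692% beyond 20 Mb) and 25 of 101 H3K27ac regions (24.8%, against 3.92%). The same held genome-wide for regions that overlapped: of 604 H3K4me3 regions over H3K27me3 gains, 132 were higher (21.9%, against 2.22% of those over any tested H3K27me3 region), and of 201 H3K27ac regions over them, 124 were higher (61.7%, against 12.1%). Titles carry the same animal tags across marks, except that H3K4me3 also has lamb 3, an animal with no library of the other marks. The pooled input was not analysed here. Signal shared by all precipitations was not tested as a part of these gains. Of the 18 regions with at least 1000 reads per kb, 17 rose, 14 overlapped an H3K4me3 region and 10 an H3K27ac region, where median read density was 55518 and 8334 reads per kb against 148 and 245 over all regions of those marks.

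Losses of H3K27me3 shared another feature. Of the 5811 regions that fell, 58.0% overlapped an H3K4me3 region by at least 1 bp, against 17.8% of those that rose and 15.0% of all tested. Among regions 2 to 5 kb wide the shares were 62.6, 36.5 and 35.5%. H3K27ac regions overlapped 16.5% of the losses, 4.99% of the gains and 4.54% of all. H3K4me3 itself seldom passed there: of 4199 H3K4me3 regions over losses, 1 was higher and 3 were lower. Of 1040 H3K27ac regions over losses, 84 were higher (8.08%, against 12.1% over any tested H3K27me3 region) and 67 were lower (6.44%, against 7.61%).

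At promoters, too, most losses were in the H3K4me3 table. Of the 559 losses, 533 (95.3%) had a row in the H3K4me3 table, against 52 of the 280 gains (18.6%) and 55.6% of all 6334. The class of highest H3K27me3 level held 403 of these losses and 22 of these gains. The shares were not compared within level, so level and direction of change cannot be told apart here. H3K4me3 rose at 27 of those 52 gains (51.9%) and 42 of the 533 losses (7.88%), against 14.5% of all shared promoters. H3K27ac rose at 117 of the 285 losses with a row in its table (41.1%) and fell at 9, where 23.3% of all shared promoters rose and 7.71% fell. For the 308 losses below the 10th percentile of like level it was 86 of 221 (38.9%). H3K27ac and H3K27me3 sit on the same residue, and these are counts of separate fits with no test of their overlap.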

How the data were processed

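Chromatin immunoprecipitation reads of 50 bp were mapped to Oar_v3.1 in CLC Genomics Workbench 7.0, per the series design. Per the submitters' processing notes, bedtools 2.19.0, edgeR and MACS were used, with no role given. The deposited region tables hold raw read counts per region. The deposited promoter values are a scaled signal: they are whole multiples of a step of 3.43 to 3.57 per library (100% whole within 0.02 reads), but neither the basis of the step nor the width of the window is stated by any label or header read. The highest of a promoter's 4 values was never under 51.5, so the table lists marked promoters only. A blank line (1 row) was left out.

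Libraries were grouped by stage from their labels. Promoter values were scaled by column total and TMM, transformed as log2(value + 1) with no filter and fitted by limma-trend (version 3.58.1). Region counts on chromosomes 1 to 26 went into the quasi-likelihood test of edgeR 4.0.16 after filterByExpr, with TMM from these chromosomes. Contrasts are lamb minus fetal, with Benjamini-Hochberg adjustment over each table and a threshold of 0.05. With 2 against 2 libraries an exact permutation test of 1 value cannot go below p = 0.333 (two-sided), so limma and edgeR draw on the spread of all features. Coordinates are 1-based. The members and lists were chosen with earlier results of these data known. Lists were matched by symbol or by a unique RefSeq synonym (ARS-UI_Ramb_v3.0 assembly, names only). Genes named are 21 genes of fat biology where present, the 12 largest gains and 12 losses that passed without overlap, up to 4 passing members per list (or 2 of the highest level), the 6 farthest above and below like level and the 8 strongest. Regions are the 8 largest and 4 broadest of each direction and the 4 longest runs, of which some are printed; the 8 of smallest p were added after values were seen. Multi-copy and RNA genes were kept out of the largest changes. On simulated data with 200 changed features the promoter test recovered 98.5% of 4-fold and 32.8% of 2-fold changes, and the region test 87.9 and 7.46%. Promoter base composition was not run, since no promoter sequence was at hand. Some genes that the naming rule picks are not reported here.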

Additional observations from a re-analysis of the deposited data

How the results depend on the processing

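With 280 promoters higher and 559 lower as reported, column totals gave 435 and 368, the deposited scaling 134 higher, a loess curve against level 148 and 246, and DESeq2 (1.42.0) on recovered reads 18 and 204. Leaving out 1 library gave 0 to 520 higher and 0 to 885 lower. Leaving out the 1584 promoters of highest level before scaling, chosen after seeing the data, gave 127 and 280. For regions, 3164 higher and 5811 lower as reported, column totals gave 5843 and 3820, DESeq2 407 and 2969, scaling from all regions of the table (with chromosome X) 8652 and 2242, regions merged within 5 kb 1882 and 3129 (fewer features), and regions of at least 2 kb 1145 and 1228. Leaving out 1 library gave 377 to 5800 higher and 970 to 8255 lower. The median change of all regions moved from 0.02 to 0.18 with column totals and to 0.31 with scaling from all regions, and that of promoters from 0.02 to 0.13 with column totals. GJA3, NKX2-3 and INHBA turned from lower to higher under the loess curve (log2 changes 0.25, 0.13 and 0.012, none past the threshold), by which 46 of 87 named calls held. Pseudocounts of 5 and 20 kept all 87. A replicate block gave 506 promoters higher and 746 lower, and 3942 regions higher and 6868 lower. The numbers do not pair the animals: same-numbered libraries' deviations correlated at 0.099 over promoters and 0.078 over regions. Leaving out genes on sex chromosomes removed 0 promoters. Except where given, the cause of a shift was not tested. At 324662 to 430345 promoter reads per library, changes of 2-fold are mostly missed, as simulated data showed.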
